A study of Mus musculus with 4 samples.

Results

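Testis-expressed and germ cell genes were examined in both deposited lists of H3K9me3 regions, which hold the regions called higher and those called lower in Arid1a-deficient than in control microglia. The genes were Tex15, Tex22, Tex26 and Tex13c3 of the testis-expressed (Tex) genes, Rhox5 and Rhox7-ps2 of the reproductive homeobox cluster, and Spin2-ps1 of the spindlin family. A region was counted for a gene when that gene had the nearest transcription start or when its intron or exon held the region. By this rule the 7 genes had 8 of the 5432 listed regions, and all 8 were in the list of regions higher in the knockout (KO). The genes were chosen because earlier work on the same lists had found them on that side, so their direction is given as a description and without a test.

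The libraries were made from microglia, which are macrophages that live in the brain, after sorting cells of the telencephalon from C57BL/6 mouse embryos labelled embryonic day 14 (14.5 in the protocol). Control embryos, named WT in the titles, were Arid1a fl/fl, and KO embryos were Arid1acKO-Cx3cr1, in which Arid1a is removed where the Cx3cr1 driver is active, that is in microglia and other cells that express this gene. Arid1a encodes a DNA-binding part of the nucleosome remodeller SWI/SNF. H3K9me3 and control IgG were profiled by CUT&Tag, a method that tethers a transposase to the chromatin an antibody recognises, with 1 library per antibody and genotype and 100000 cells per library. The lists hold no value per library, so no difference between genotypes has a replicate check, the depth is unknown and the loss of Arid1a could not be checked. The number of embryos behind a library and their sex are not given in the labels.

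Trimethylation of lysine 9 on histone H3 marks silent chromatin, and it is laid down at repeats, at tandem gene families and at some genes that are used only in germ cells. Many germ cell genes are kept silent in somatic tissues by DNA methylation together with repressive histone marks. Tex15 encodes a large protein of male germ cells that is needed for meiotic recombination and, in fetal male germ cells of the mouse, for the silencing of transposons through the piRNA pathway. Rhox genes are homeobox genes of an X-linked cluster that is expressed mainly in testis, ovary, epididymis and placenta, and Rhox5, first known as Pem, is its founding member. Spindlin proteins read methylated tails of histone H3.

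Promoter sequences were available for 4 of the 7 genes, each from 250 bases before to 50 bases after an annotated start. They are from GRCm38.p6, the mouse assembly in which the positions are given. For Tex26 that start is 149439660, the one in the authors' annotation, 9 bp after the RefSeq gene start. For the others it is the RefSeq gene start. They are shown because promoters of silenced germ cell genes are often described by their CpG dinucleotides, the sites of DNA methylation, and capitals mark each CpG. The promoter of Tex26 (chr5:149439410-149439709, plus strand), that of Rhox5 (chrX:37754358-37754657, plus strand) and that of Spin2-ps1 (chrX:3836607-3836906, minus strand) span the range of CpG content.
Tex26: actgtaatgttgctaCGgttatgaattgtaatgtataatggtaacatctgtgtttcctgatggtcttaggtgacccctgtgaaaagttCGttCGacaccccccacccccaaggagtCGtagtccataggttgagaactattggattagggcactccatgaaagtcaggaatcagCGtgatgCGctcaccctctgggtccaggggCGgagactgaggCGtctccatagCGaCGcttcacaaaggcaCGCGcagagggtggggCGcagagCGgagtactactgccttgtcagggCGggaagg
Rhox5: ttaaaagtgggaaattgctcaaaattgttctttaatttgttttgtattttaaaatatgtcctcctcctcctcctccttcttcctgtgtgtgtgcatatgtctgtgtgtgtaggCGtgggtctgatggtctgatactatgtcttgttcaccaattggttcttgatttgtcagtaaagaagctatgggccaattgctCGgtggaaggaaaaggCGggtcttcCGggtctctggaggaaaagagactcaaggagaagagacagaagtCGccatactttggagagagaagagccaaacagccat
Spin2-ps1: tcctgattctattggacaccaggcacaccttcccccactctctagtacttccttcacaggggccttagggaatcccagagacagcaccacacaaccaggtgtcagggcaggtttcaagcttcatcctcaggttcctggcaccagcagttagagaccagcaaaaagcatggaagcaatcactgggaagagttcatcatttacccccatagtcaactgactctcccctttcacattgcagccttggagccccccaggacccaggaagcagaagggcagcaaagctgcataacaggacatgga
The Tex26 promoter held 15 CpG, against a median of 7 over the 32851 promoters of the table, and 65.4% of promoters had fewer. Rhox5 and Tex13c3 held 5 each and Spin2-ps1 held 0. The authors' start of Spin2-ps1 lies 878 bp upstream of the RefSeq start, so the sequence printed for it lies inside their transcript. The letters GGCGGGA, which resemble the sequence bound by E2F factors, were searched on both strands and occurred once among the 4 promoters, in that of Tex26 on the plus strand with the first base 41 bases into the transcript. They occurred in 11.3% of all promoters of the table. The E-box CACGTG, which reads the same on both strands, was in none of the 4 promoters and in 7.15% of all. These matches describe the sequence and not the binding of a factor. Listed regions overlapped 0 of the 4 promoters.

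The distance of each region to the transcript and its score are drawn in the map of regions around the member transcripts. Each score was given by the authors on a scale the sources used here do not name, and it served to rank regions within the higher list, where the median was 2.52 and the quartiles were 1.95 and 3.69.

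**Figure D1:**
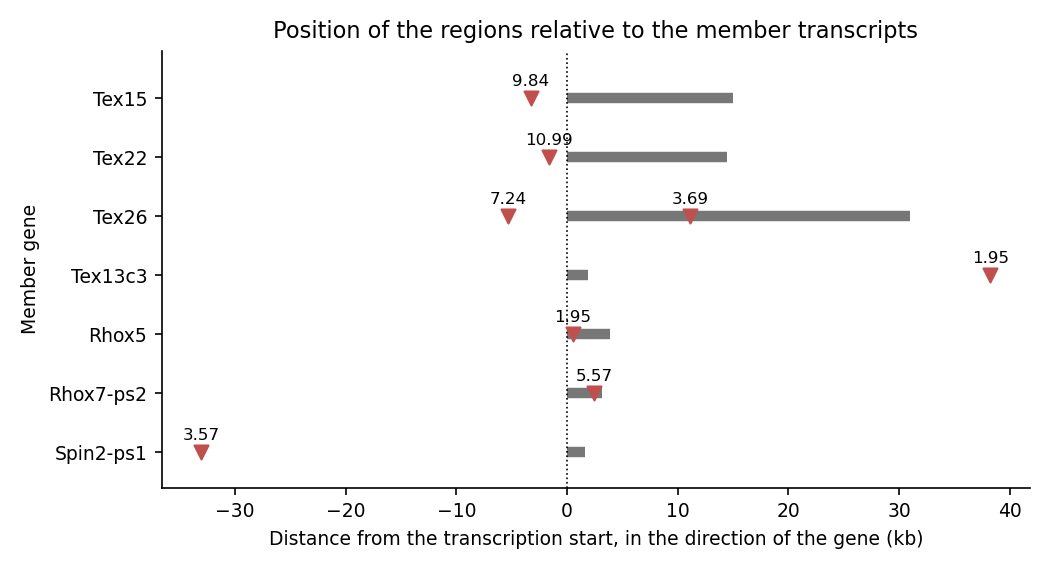
Position of the 8 regions (red triangles, at the centre of each region) relative to the transcripts in the authors' annotation (grey bars), in kb from the transcription start in the direction of each gene. Numbers are the authors' peak scores. Regions of Tex15, Tex22 and Tex26 lay within about 5 kb upstream of the start, a further one lay inside Tex26, both Rhox regions lay inside their gene, and those of Tex13c3 and Spin2-ps1 lay more than 30 kb away.

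Tex15 had 1 higher region with a score of 9.84 on chromosome 8 from 33567077 to 33567485. Only 42 of the 3488 regions of the higher list scored above it. The authors' annotation calls it distal intergenic, 3.06 kb upstream of the start of the Tex15 transcript in that annotation. RefSeq starts Tex15 at 33516689, 53.9 kb further upstream, so that by RefSeq the region lies inside the gene. Intergenic or within the gene is therefore a matter of the annotation used.

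Tex22, named for its expression in testis, had the highest score of the set, 10.99, in a region on chromosome 12 from 113072554 to 113073116. Of the higher list, 33 regions scored above it. At 563 bp it was also the widest of the 8, wider than 83.5% of the higher list. The authors place it in the promoter class between 1 and 2 kb, with its edge 1386 bp upstream of the start. By RefSeq the same bases lie inside the neighbouring gene Pacs2, which encodes a sorting protein of the secretory pathway.

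Tex26, another gene named for testis expression, was the only one of the 7 with more than 1 region. The upstream region, on chromosome 5 from 149434138 to 149434598, scored 7.24 and lay 5.06 kb before the start, in no RefSeq gene. The other, from 149450606 to 149450916, scored 3.69 and lay in intron 2 of 6 of Tex26, 10.9 kb after its start. The nearest start to the intronic region was that of 4933425D22Rik, a transcript within Tex26, at 8.75 kb, so that the region counts for Tex26 through the gene that holds it. The pair lay 16.0 kb apart with the Tex26 start between them. Of the higher list, 95 regions scored above the upstream region and 801 above the intronic one.

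Tex13c3 is an X-linked member of the TEX13 family. Its region on chromosome X from 19442941 to 19443218 had a score of 1.95, at the lower quartile of the higher list. It was the narrowest of the set at 278 bp, and 2.84% of the higher list was narrower. It lay 38.1 kb beyond the start and 36.2 kb past the end of the short RefSeq gene, in no annotated gene. Tex13c3 is thus linked to it by proximity alone.

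Rhox5 had a region in the promoter class within 1 kb, on chromosome X from 37805135 to 37805573, beginning 284 bp after the start of the Rhox5 transcript in the authors' annotation. Its score was 1.95, the same as at Tex13c3 and as in 534 regions of the higher list in all, the commonest score there. The start in RefSeq lies 50.2 kb upstream of the one used by the authors, so the promoter sequence printed above is not the one next to this region, and by RefSeq the region lies inside the gene.

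Rhox7-ps2 is a pseudogene of the same cluster. Its region on chromosome X from 37676875 to 37677320 scored 5.57, and 222 regions of the higher list scored above it. It is placed in the promoter class between 2 and 3 kb, but on the downstream side, 2.24 kb after the start and inside the gene. A RefSeq pseudogene, LOC108168497, covers the same bases. The Rhox regions were 128 kb apart. Over the 1.09 Mb from the first to the last of 42 RefSeq Rhox genes there were 3 listed regions, 3 higher and 0 lower, the third in an intron of Tmem255a with a score of 2.82. The first 2 of these are the member regions themselves, so the count says nothing of the cluster beyond 1 further region.

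Spin2-ps1 is named as a pseudogene by the authors' table and entered as protein coding in RefSeq. Its region on chromosome X from 3870321 to 3870815 scored 3.57, with 922 regions of the higher list above it. It lay 32.8 kb upstream of the authors' start and inside the RefSeq pseudogene Gm14355, so that here too the link to the member rests on proximity. Rhox and Spin2 genes have close copies, and how reads that match several copies were treated is not given in the sources used here, so the assignment of these regions to 1 copy is uncertain.

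The scores were set side by side for autosomes and X. The 4 autosomal regions scored 10.99, 9.84, 7.24 and 3.69, and the 4 on X scored 5.57, 3.57, 1.95 and 1.95. The ranges overlapped, since Rhox7-ps2 on X scored above the intronic region of Tex26. The median was 8.54 on the autosomes and 2.76 on X, and in the higher list as a whole it was 2.53 on autosomes and 2.52 on X. In all, 6 of the 8 scored above the median of the higher list and 5 at or above its upper quartile. High scores may have entered the choice of the genes, and the scores were therefore not tested.

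**Figure D2:**
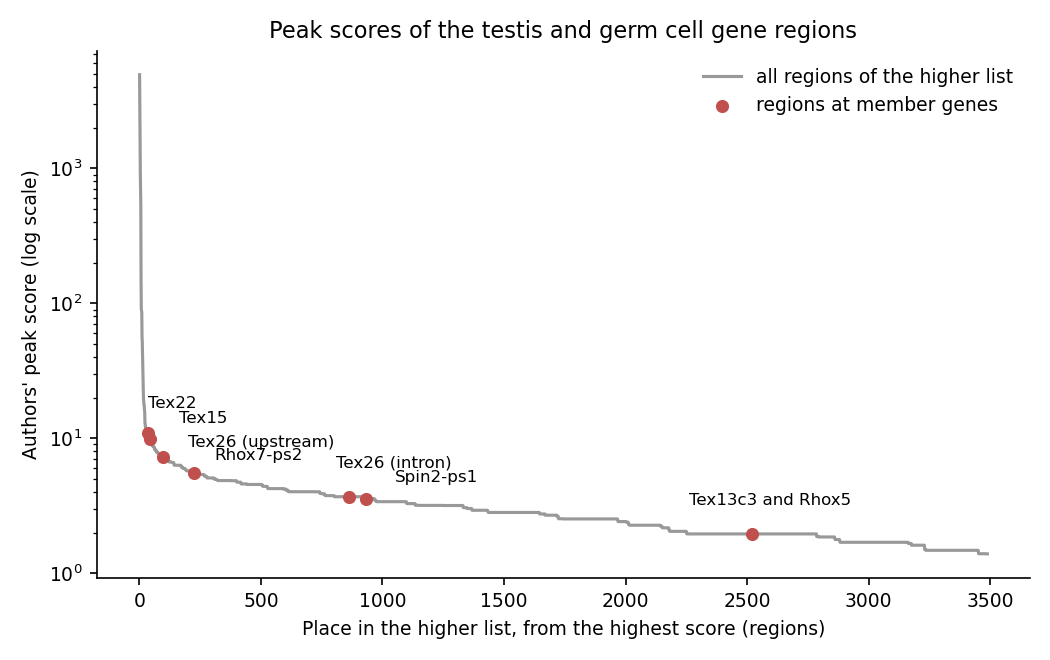
Authors' peak score (log scale) against the place of a region in the higher list, from the highest score to the lowest, for all 3488 regions (grey line) and the 8 regions at the member genes (red points). Tex22, Tex15 and the upstream Tex26 region sit near the top of the list, and Tex13c3 and Rhox5 share 1 point in the flat stretch of 534 regions with a score of 1.95, drawn at its middle.

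The widths ran from 278 to 563 bp with a median of 442.5 bp, against 404 bp over the higher list and quartiles of 331.75 and 506 bp, and 6 of the 8 were wider than that median. By class, 3 were in promoters, 1 in an intron and 4 distal intergenic, where the whole higher list had 12.6% in promoters, 35.5% in introns and 47.9% distal intergenic. With 8 regions these shares carry wide counting error.

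The direction was read against the lists as a whole. Of all listed regions, 64.2% were higher in KO (exact Clopper-Pearson 95% interval 62.9 to 65.5), and on the autosomes 63.8%. On X, where 4 of the 8 lay, 134 of 168 were higher, or 79.8% (72.9 to 85.6). For 8 of 8 the interval reached from 63.1% to 100%, which covers counting error only and includes these shares. Nothing was read from the count, since the genes were chosen with their direction known.

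The nearest other regions were looked up to describe the surroundings of the members. Within 100 kb of a member region there were 2 regions of other genes, and both were lower in KO. One, nearest to the start of Gsr, which encodes glutathione reductase, had a score of 3.91 and lay 81.3 kb beyond the Tex15 region. The other, in the promoter class of Crip1, which encodes a small LIM-domain protein, scored 1.90 and lay 76.7 kb beyond the Tex22 region. Of all 5249 listed autosomal regions 1902 were lower in KO, so 2 such neighbours were not read as a trait of these members.

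On the other side of Tex15, at 127 kb, the next region was higher and nearest to 5930422O12Rik (score 2.52). Before Tex22, at 582 kb, it was higher and in the promoter class of A530016L24Rik (2.52). Around Tex26 the next regions were higher on both sides, near Hmgb1, which encodes a chromatin protein, at 370 kb (2.52) and near the predicted gene Gm21221 at 321 kb (2.27). For comparison, the median gap between adjacent listed regions over the genome was 312 kb.

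On X every neighbouring region was higher as well. Those next to Tex13c3 lay near Dusp21, a dual specificity phosphatase gene, at 1344 kb (1.48) and in an intron of the sodium-proton exchanger gene Slc9a7 at 714 kb (2.82). Those flanking the Rhox pair lay in introns of the septin gene Sept6 at 741 kb (2.52) and of Tmem255a at 417 kb (2.82), and the next after Spin2-ps1 was near Gm9427 at 575 kb (2.52). Within 1 Mb of the members there were 18 regions of other genes, 13 higher and 5 lower. All 7 of them on X were higher, and of the 11 on autosomes 6 were higher and 5 lower. Over all listed regions the share higher was 79.8% on X and 63.8% on autosomes. These few neighbours were therefore not read as a trait of the members' surroundings.

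**Figure D3:**
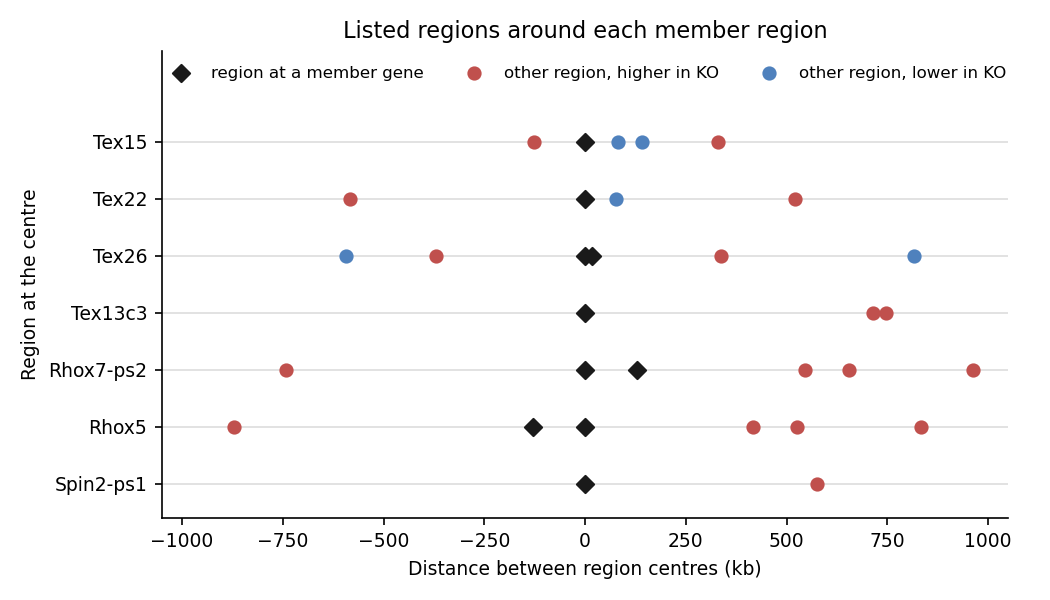
Listed regions within 1 Mb of each member region, by the distance between region centres in kb; for Tex26 the upstream region is at the centre. Black diamonds are regions at member genes, red points other regions higher in KO and blue points other regions lower in KO. Blue points lie next to Tex15 and Tex22 and farther from Tex26, and there are none in the rows on X.

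The families of the members were read against the share of all genes with a listed region. Of 49993 RefSeq genes, 8.10% had a region in either list by nearest start or by holding it, and of 21896 protein-coding genes 10.7%. Of 39 Tex genes, 5 (12.8%) had regions, all higher, and 34 had none in either list. Besides the members these included Tex37, whose region lay downstream of the gene, 8.35 kb from its start, with a score of 2.04. Of 42 Rhox genes, 2 (4.76%) had regions, and of 13 Spin genes 1 (7.69%). The 3 families thus contained no lower region. The members were chosen with their higher regions known, so these counts do not bear on the direction independently.

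Other germ cell genes were taken from lists of genes by function. The Spata genes, named for an association with spermatogenesis, had 4 genes with higher and 2 with lower regions among 30. That was 20.0% of the list, beside 8.10% of all RefSeq genes and 10.7% of protein-coding genes. The highest score was 11.8, in an intron of Spata9 and higher, followed by lower regions near Spata6 (6.67) and in the promoter class of Spata1 (5.57). Higher regions also lay near Spata18 (3.76), in Spata16 (2.52), a gene of acrosome formation, and downstream of Spata46 (1.95). This family thus had regions in both directions, with 66.7% of its regions higher. The exact interval of that share, 22.3 to 95.7%, includes the 64.2% of all listed regions. Of 105 genes of X-linked testis families outside Tex13, Rhox and Spin2, only the claudin gene Cldn34d (0.952%) had a region. It was higher, with a score of 42.1.

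Meiosis genes had 3 genes with higher and 2 with lower regions among 47. That was 10.6% of the list, beside 8.10% of all RefSeq genes and 10.7% of protein-coding genes. The share of regions higher was 60.0%, and its exact 95% interval, 14.7 to 94.7%, includes the 64.2% of all listed regions. The higher regions were at Tex15, Mei1 (2.52, promoter class between 1 and 2 kb) and Mei4 (1.69, intron). Mei1 and Mei4 are both needed for meiotic DNA breaks in the mouse. The lower regions belonged to Stra8, the retinoic acid target that starts meiosis, and to Hormad2, which encodes a protein of the chromosome axis. That of Stra8 lay in the promoter class within 1 kb, 917 bp upstream of the start, with a score of 4.05, and that of Hormad2 in an intron (2.57). Among all the germ cell genes examined, regions in the promoter class within 1 kb were thus found at Rhox5, in the higher list, and at Stra8, in the lower list.

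Of 33 genes listed under the piRNA pathway, through which germ cells silence transposons, 6 had regions, and all 6 regions were higher. That was 18.2% of the list, beside the 8.10% of all RefSeq genes and 10.7% of protein-coding genes. The exact 95% interval of the share higher, 54.1 to 100%, includes the 64.2% of all listed regions, and 1 of the 6 genes is the member Tex15. Tex15 had the highest score, followed by Tdrd7 (6.65), a Tudor domain gene, with a region 5.27 kb upstream of its start. Henmt1 (3.39), which encodes the methyltransferase of piRNA ends, and Piwil2 (2.82), which encodes the piRNA-binding protein MILI, held theirs in exons. Morc1 (2.82), which acts in transposon silencing in male germ cells, had a region in the promoter class between 2 and 3 kb. Tdrd3 (1.48), a Tudor domain gene used in many tissues and not particular to germ cells, had one in an intron. For Piwil2 and Tdrd3 another gene's start was nearer. All 6 were autosomal.

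Spermatid and sperm genes had 6 genes with higher and 2 with lower regions among 91. Izumo3, which acts in acrosome formation, had 2 higher regions (4.54 and 3.39). Higher regions also lay in the promoter class of Adam30 (3.76) and upstream of Tcp11 (3.06) and Pgk2 (2.52), the phosphoglycerate kinase of sperm. The lower ones lay in an intron of Spag9 (2.47) and in an exon of Spag5 (2.30), genes that are used outside germ cells too. Of 38 genes of germ cell specification and oocytes, only Kit (2.63% of the list) had a region, higher and in an intron, with a score of 2.53. Kit is a receptor gene used by germ cells and blood progenitors alike. Among 37 genes whose products silence germ cell genes, 2 had a region, both lower, and there were 0 higher. That of Cbx5, which encodes HP1 alpha, was in the promoter class within 1 kb, 864 bp after the start (2.08). That of Hdac2, which encodes a histone deacetylase, lay 35.5 kb upstream of the start (3.45). The 2 genes were 5.41% of the list, beside the 8.10% of all RefSeq genes and 10.7% of protein-coding genes. With 2 regions the exact interval of the share higher, 0 to 84.2%, includes the 64.2% of all listed regions.

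**Figure D4:**
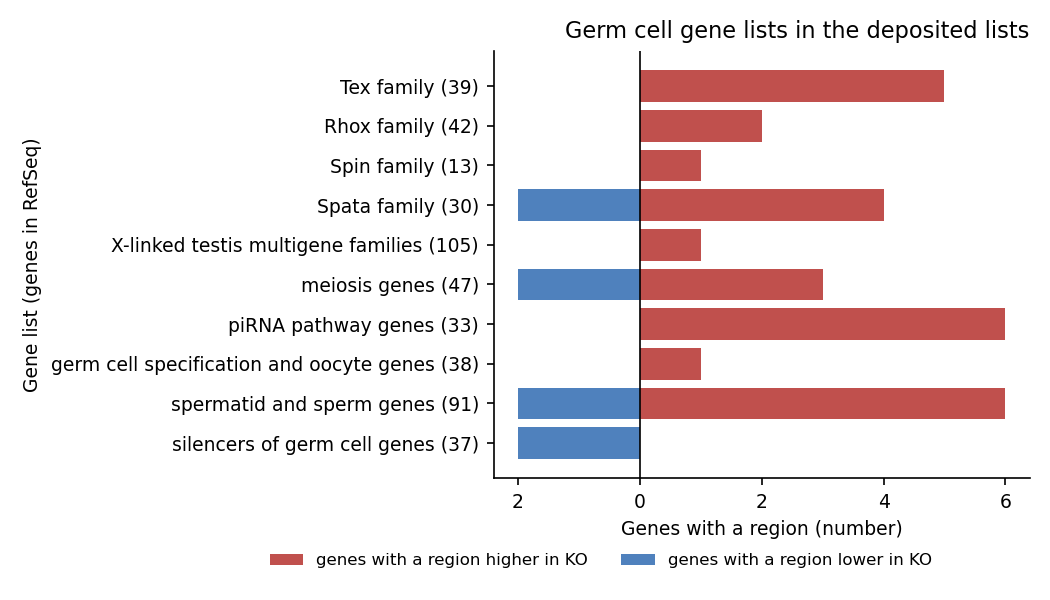
Number of genes with a region higher (red, to the right) or lower (blue, to the left) in KO for each gene list, with the number of its genes in RefSeq in brackets. A gene counts by nearest start or by holding the region, and Tex15 stands in 3 of the lists. Tex, Rhox, Spin, X-linked testis, piRNA and germ cell specification genes have bars to the right alone. The Spata, meiosis and sperm lists have 2 genes each to the left, and the silencers have 2 to the left alone.

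Over all germ cell lists together, leaving out the silencers, 35 regions were counted, 29 higher and 6 lower, or 82.9% higher (66.4 to 93.4). These include the 8 member regions, chosen with their direction known, so this share and its interval are partly set by that choice. Without the 7 members 21 of 27 were higher, or 77.8% (57.7 to 91.4), an interval that includes the 64.2% of all listed regions. Of the 423 other germ cell genes in RefSeq, 26 had a region, or 6.15%, beside the 8.10% of all RefSeq genes and 10.7% of protein-coding genes. The median score without the members was 2.82. Of 6 defining germ cell markers (Ddx4, Dazl, Dppa3, Sycp3, Mael and Tex101) none had a listed region. Most genes had none, with a region at 8.10% of all RefSeq genes, so this absence was not read as a result. The lists hold no expression values, so the identity of the sorted cells could not be checked.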

How the data were processed

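Per the labels' protocols, CUT&Tag libraries (H3K9me3 and IgG) of microglia were amplified for 14 PCR cycles. Tools named in the submitters' processing notes are Bowtie2 2, CASAVA 1.4 and FastQC, and the build named is mm9, with no role for any. How peaks were called, whether IgG was used and what put a region in a list is not given in the sources used here. Deposited by the authors were 2 lists of regions, with 3488 higher and 1944 lower in KO, each with a peak score of unstated scale. They give no counts, so depth is unknown.

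Positions were read as GRCm38. Listed regions reach position 170005791 on X and 90005284 on Y, beyond the ends of these chromosomes in mm9, and the transcripts of all 7 members overlap the GRCm38.p6 RefSeq genes of the same name. The distances in all 5432 rows equal the gap from the region's edge to the start by strand.

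With 1 library per group no test was made. Counts have exact Clopper-Pearson 95% intervals, for counting error only. The members and the 10 gene lists were chosen with earlier results of these data known. Named genes were all members, genes holding their regions, the next listed region on either side, every Tex, Rhox and Spin gene with a region and up to 6 genes of highest score per list. The lists of families were matched by symbol. The result for microglia markers is not reported here. Assignment was tested on simulated regions, and the gap between regions and the motif search on small constructed examples. Software was scipy 1.17.1, pandas 2.3.3, numpy 2.4.6 and matplotlib 3.10.9 under Python 3.11.15.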

Additional observations from a re-analysis of the deposited data

How the results depend on the processing

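The count of 8 higher member regions depended on how a region is tied to a gene. It was 7 by nearest transcription start alone, 1 by the gene that holds the region alone and 4 for regions inside the member gene or its promoter class. It was 4 on the autosomes alone, and 6 each with a score at least 1 above the smallest or in the upper part of the list from its median. Merging regions within 10 kb or keeping those within 50 kb of the start left it at 8. No lower region appeared under any of these 8 alternatives, which all keep a part of the same regions. The median score of the members, 4.63, was 8.54 on the autosomes alone and 5.57 by nearest start alone. The number of other listed regions around the members was 2 within 100 kb and 18 within 1 Mb. The share higher over the germ cell lists, 82.9%, ranged from 76.9% by the gene that holds the region to 85.2% by nearest start over 5 alternatives. Only the alternative without the member genes, 77.8%, leaves out the regions chosen with their direction known. No paired analysis was possible because each group had 1 library and the result comes from no test. No library could be left out for the same reason. Depth limits cannot be given, since the lists hold no counts.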

Other observations

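The authors' scores take few values. The 3488 regions of the higher list have 190 different scores and the 1944 of the lower list 165, and 17 scores occur in both lists. The score at Rhox5 and Tex13c3, 1.95, is shared by 534 higher regions, that of the intronic Tex26 region, 3.69, by 118, that of Spin2-ps1 by 21, that of the upstream Tex26 region by 7 and that of Rhox7-ps2 by 3. The scores of Tex22 and Tex15 each occur once.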
